A study of Mus musculus with 20 samples.

Results

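The integrin subunits and laminin chains were followed through 20 RNA sequencing libraries of mouse cells. Members were taken by gene symbol, as integrin alpha subunits, integrin beta subunits and laminin chains. The rule found 36 genes in each of the deposited tables, of 22102 entries in the differentiation time course and 42458 in the survey of stem cell and fibroblast lines. They were 17 alpha subunits, 8 beta subunits and 11 laminin chains. No measured value was used to choose them.

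The time course held 12 libraries of E14 embryonic stem cells (strain 129/Ola) taken towards heart muscle. Each culture carried a lentiviral short hairpin RNA and was selected with puromycin, the control culture included. The hairpins were a scrambled one and hairpins A and B against Braveheart, a long noncoding RNA, and each of the 3 cultures gave 1 library at days 0, 3, 6 and 9. The survey held 8 libraries: wild-type embryonic stem cells (mESC), from E14 and from v6.5 (129/svJae x C57BL/6), 2 libraries each, Oct4-GFP embryonic fibroblasts (MEF), 1 library, and cells derived from such fibroblasts with retroviruses for Klf4, c-myc, Sox2 and Oct4. The derived cells were the partially reprogrammed lines MCV6 and MCV8, with 1 library each, and the fully reprogrammed line MCV8.1 (miPS), with 1 library. Per the labels, the stem cell and miPS lines of the survey grew on irradiated fibroblast feeders and were pre-plated to remove them, whereas the partially reprogrammed lines grew without feeders. The labels do not say that libraries of 1 group came from separate cultures, so p-values measure the spread between these libraries, which may be technical. That spread also holds hairpin differences within a day of the time course, and differences between the lines MCV6 and MCV8. In bulk samples, fewer cells of a type and less RNA per cell cannot be told apart.

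Laminins are secreted trimers of an alpha, a beta and a gamma chain that assemble into the sheets of basement membrane under cell layers. Integrins are the cell surface receptors that bind them and other matrix proteins, each made of an alpha and a beta subunit, and the pairing sets which ligand is bound. In the early embryo the first basement membranes carry trimers with the Lama1 or the Lama5 chain, and integrins with Itgb1 are the main laminin receptors of embryonic stem cells.

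Depth was read from the tables. The expected counts summed to between 7536503 and 23662593 reads per survey library. The smallest steps of the FPKM values (fragment counts scaled by transcript length and library depth) implied between 8.52 and 13.8 times 1000000 reads per time course library, where 3 reads on a transcript of 1 kb correspond to between 0.217 and 0.352 FPKM. The day 6 and day 9 libraries of hairpin B stood apart from the others of their day. Over genes, its day 9 library correlated with the 3 day 0 libraries at 0.944 to 0.953 (Pearson), but with the other day 9 libraries at 0.865 and 0.877. Its 8 markers of pluripotent cells summed to 7558 FPKM, against 719 (scrambled) and 853 (hairpin A) on that day. Counts and calls of the course are therefore given with and without these libraries, an alternative chosen after the data were seen. Leaving out libraries for their likeness to day 0 favours larger differences from day 0 and a smaller spread by construction. The level of Braveheart itself is not analysed here. In the survey, the v6.5 libraries had a correlation of 0.896 with each other, against 0.992 between the E14 libraries.

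Promoters are shown for 3 members that carry the contrast between stem cells and fibroblasts described below: Itgb1 and Itgb5, which were higher in fibroblasts, and Lama5, which was higher in stem cells. Each is the 250 bases before the gene's start in the gene's direction, from RefSeq on GRCm38.p6. Capitals mark matches to GGGCGG, the core of the site of the transcription factor Sp1, or to ACAAAG, a core of Sox factor sites, each searched on both strands.
Itgb1, chr8:128685404-128685653, plus strand: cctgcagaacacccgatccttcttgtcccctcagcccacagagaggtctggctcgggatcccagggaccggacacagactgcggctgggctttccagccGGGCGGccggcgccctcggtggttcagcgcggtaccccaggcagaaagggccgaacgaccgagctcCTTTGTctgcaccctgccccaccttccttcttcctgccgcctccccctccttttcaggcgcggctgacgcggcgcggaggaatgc
Itgb5, chr16:33829415-33829664, plus strand: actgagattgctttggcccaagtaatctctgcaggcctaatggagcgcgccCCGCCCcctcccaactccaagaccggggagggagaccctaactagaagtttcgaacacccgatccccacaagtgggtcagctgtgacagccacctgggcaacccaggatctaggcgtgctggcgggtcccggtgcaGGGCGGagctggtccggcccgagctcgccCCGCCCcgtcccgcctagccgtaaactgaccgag
Lama5, chr2:180225860-180226109, minus strand: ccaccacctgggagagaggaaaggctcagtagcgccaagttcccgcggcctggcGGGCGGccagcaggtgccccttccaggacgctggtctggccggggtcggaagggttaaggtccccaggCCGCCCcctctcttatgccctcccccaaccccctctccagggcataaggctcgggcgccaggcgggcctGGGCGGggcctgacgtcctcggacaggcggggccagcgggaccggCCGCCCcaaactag
The Itgb1 window held 1 Sp1 match and 1 Sox match, the Itgb5 window 3 Sp1 matches and the Lama5 window 4. Of the 36 members, 23 matched the promoter table, with 26 windows. A Sp1 match was in 9 of them (34.6%), against 32.7% of 32851 promoters of the same length. AGATAA, a core of GATA factor sites, was in 1 window (3.8%, against 10.0%), ACAAAG in 2 (7.7%, against 16.5%) and TATAAA, the TATA box, in 0 (against 12.4%). The windows of the members had a median GC content of 58.0%, against 52.4% over all promoters. These are letter matches, and no file used here measures binding.

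**Figure D1:**
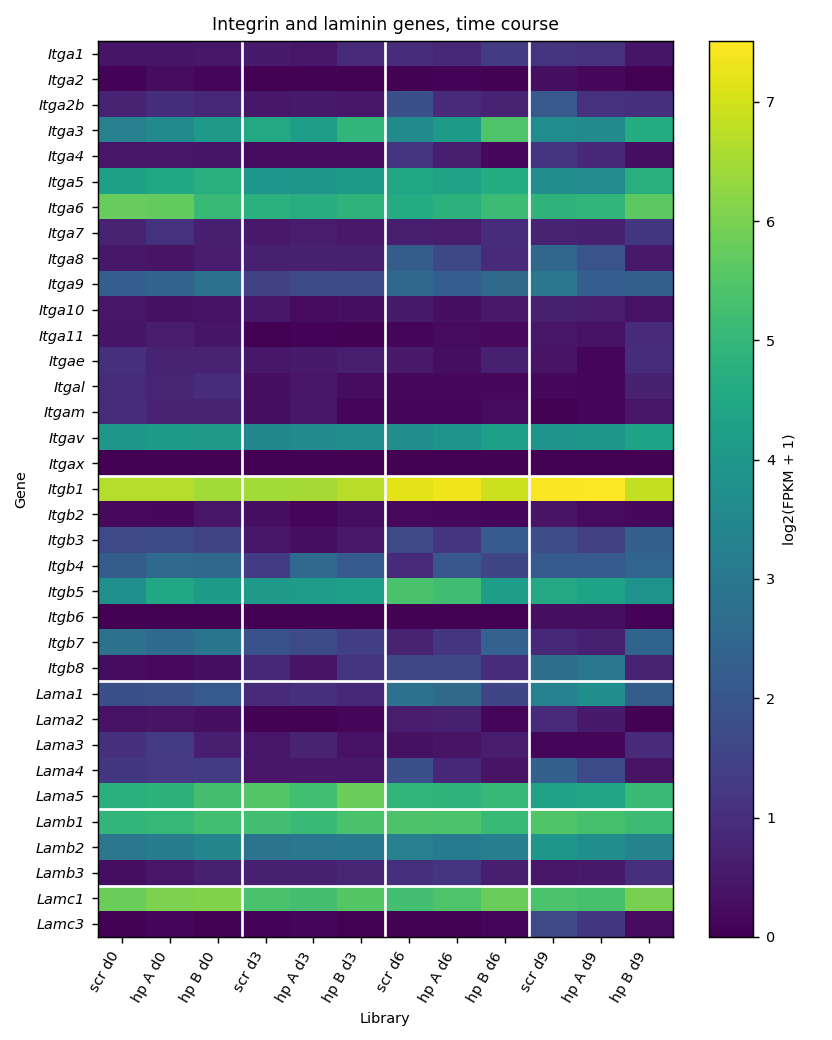
Level of the integrin and laminin genes in the 12 time course libraries, as log2(FPKM + 1), with genes in rows by class and libraries in columns by day (scr, scrambled; hp, hairpin; d, day). Itgb1 is the brightest row in every library, and the day 6 and day 9 columns of hairpin B lie closer to day 0 than the other cultures do in the rows of Itga8 and Itgb7.

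Per length, laminin and integrin transcripts of the differentiating cells were carried by few genes. In the time course Itgb1, Lamc1, Itga6, Lama5, Lamb1 and Itgb5 had the highest levels of the 36 genes in a group, with hairpins A and B of a day averaged. In single libraries Itga3 reached 42.8 FPKM, in hairpin B at day 6, above the highest Itgb5 value of 40.1 FPKM. Of the 36 genes, 26 reached 1 FPKM in at least 2 libraries and were tested. The 10 that did not were Itga2, Itga10, Itga11, Itgae, Itgal, Itgam, Itgax, Itgb2, Itgb6 and Lama2. Differences between days were tested with limma on log2(FPKM + 1), over all 12 libraries with depletion as a covariate, and p-values were adjusted by the Benjamini-Hochberg method over 14108 genes. At day 3 against day 0, 0 members rose and 1 fell, where 3.26% and 2.78% of all genes tested rose and fell. At day 6, 0 rose and 1 fell, against 4.97% and 3.71% of all genes. At day 9, 2 rose and 0 fell, against 10.3% and 6.22% of all genes. These counts of 26 members are near the background shares and set the members apart in neither direction. With each library scaled to a common median, the split of all genes called moved from 701 higher and 523 lower to 554 and 667 at day 6, and from 1459 and 878 to 983 and 1272 at day 9.

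The libraries of a culture follow 1 line through the days, so culture pairs them. With culture as a replicate block in place of the depletion covariate, 2 members rose and 3 fell at day 3 (all genes, 5.32% and 4.32%). The counts were 1 and 2 at day 6 (all genes, 9.57% and 6.05%) and 5 and 2 at day 9 (all genes, 18.8% and 11.1%). The block added Itga3, Itgav, Lama5 and Lamc1 at day 3, Itgb1 and Lamc1 at day 6, and Itgb7, Lama1, Lamc1 and Lamc3 among others at day 9. Lamc3 reached 1 FPKM only at day 9, so its call there follows in part from the choice of genes tested. Without the day 6 and day 9 libraries of hairpin B, and without the block, the counts were larger for members and for all genes. Of the 25 members then tested, 1 rose and 9 fell at day 3 (all genes, 14.5% and 12.6%), 8 rose and 5 fell at day 6 (27.4% and 18.9%), and 10 rose and 6 fell at day 9 (35.6% and 24.5%). Some of these passed the filter only through libraries of the days where they were highest, as given below. The day 3 differences are the same in both fits, since no day 3 library was left out, and the spread alone differs. In that fit the median log2 difference at day 9 was 0.35 over the members and 0.13 over all genes tested. With all 12 libraries it was 0.21 and 0.10. At day 3 the medians with all 12 libraries were -0.26 over the members and 0.01 over all genes, with 9 members above 0 and 17 below. At day 6 they were 0.02 and 0.07.

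In the account of the course below, values stand in the order scrambled, hairpin A, hairpin B, and "in the smaller fit" means without the day 6 and day 9 libraries of hairpin B. Since those were left out for their likeness to day 0, p-values of the smaller fit are descriptive and not further support. The laminin chains come first, as the ligands. On mm9, the build of the files, Lama1 lies on chromosome 17 from 68046604 to 68171985, Lama5 on chromosome 2 from 179911077 to 179960564, Itgb1 on chromosome 8 from 131209553 to 131257479 and Itgb8 on chromosome 12 from 120401275 to 120476749.

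Lama1, the alpha chain of the first embryonic laminin trimer, dipped at day 3 and was highest at day 9 in each culture, in hairpin B only slightly above day 0. It was at 2.58, 2.63 and 3.38 FPKM at day 0 and at 0.890, 1.05 and 0.778 FPKM at day 3. The levels were 5.94, 5.11 and 2.00 FPKM at day 6 and 9.09, 12.4 and 3.69 FPKM at day 9. All day 3 libraries were thus below all day 0 libraries, and all day 9 libraries above them, with hairpin B the lowest at days 6 and 9. The log2 difference at day 9 was 1.16 ± 0.39 (SE, limma adjusted p = 0.0654, n = 3 per day), with an adjusted p of 0.0348 under the culture block. In the smaller fit Lama1 fell by 1.01 at day 3 (adjusted p = 0.00264) and rose by 0.78 at day 6 and 1.61 at day 9 (limma adjusted p = 0.00597 and 0.000109). Markers of primitive and parietal endoderm, cells known to secrete laminin, moved alongside in part. The 10 genes summed to between 9.84 and 11.6 FPKM at day 0 and 11.1, 10.3 and 11.4 FPKM at day 3, with no dip like that of Lama1. They summed to 85.0, 82.0 and 19.8 FPKM at day 6, and 72.6, 73.4 and 11.3 FPKM at day 9, so the sum fell between these days while Lama1 rose. Of the 10, 7 rose at day 6 in the smaller fit (all genes, 27.4%), Foxa2 and Sox17 among them, and 2 had a difference below 0. Ttr was listed at 0 in every library of days 0 and 3. Their part in the Lama1 result was not tested.

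Lama5, the alpha chain of most later basement membranes, held the largest share of the laminin alpha transcripts throughout. Its levels were 26.4, 27.8 and 38.4 FPKM at day 0, 44.0, 36.9 and 55.8 FPKM at day 3, 29.5, 28.5 and 32.0 FPKM at day 6, and 19.1, 20.1 and 34.1 FPKM at day 9. Hairpin B was the highest culture on each day, and at day 9 the other 2 cultures were below all their earlier values. The log2 difference was 0.55 ± 0.22 at day 3 (adjusted p = 0.180, and 0.0408 under the culture block) and -0.35 ± 0.22 at day 9 (limma adjusted p = 0.249). In the smaller fit Lama5 fell by 0.59 at day 9 (limma adjusted p = 0.0299).

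As a share of the summed FPKM of the 5 alpha chains, Lama1 went from 8.14%, 7.84% and 7.66% at day 0 to 1.95%, 2.69% and 1.36% at day 3. At day 9 its share was 27.5%, 35.2% and 9.46%. Lama5 held 83.4%, 82.9% and 87.2% at day 0, between 94.6% and 97.3% at day 3, and 57.8%, 57.0% and 87.5% at day 9. The shift from Lama5 towards Lama1 and Lama4 at day 9 was thus seen in the scrambled and hairpin A cultures and not in hairpin B. The sum of the alpha chains itself was between 31.7 and 57.3 FPKM over the 12 libraries.

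**Figure D2:**
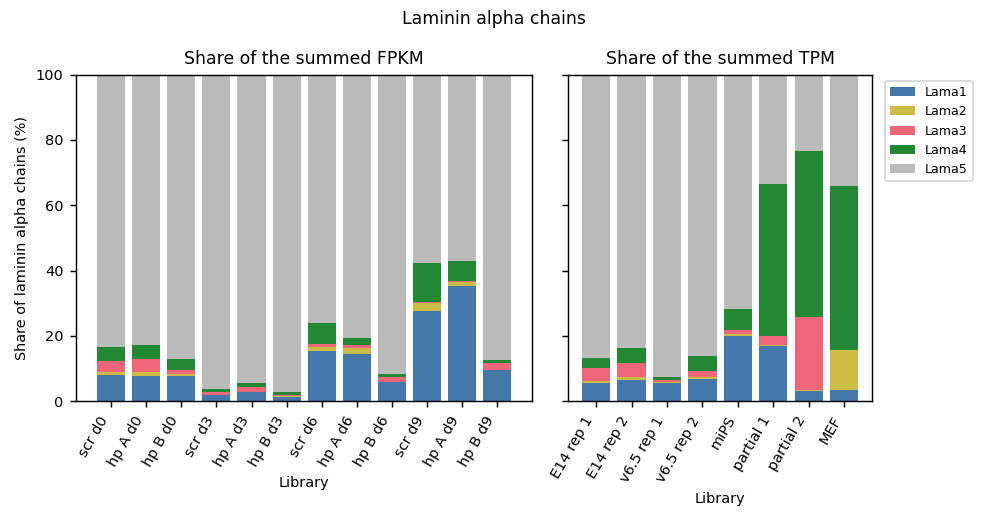
Share of each laminin alpha chain in the summed level of the 5 chains, in percent, with 1 bar per library: FPKM in the 12 time course libraries (left) and TPM in the 8 survey libraries (right). Lama5 (grey) is the largest part of every bar of the time course, and Lama4 (green) is between 46.5% and 50.8% in the partially reprogrammed lines and MEF.

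Lama4, an alpha chain of vessel and muscle basement membranes, stood at 1.31, 1.37 and 1.46 FPKM at day 0 and at 0.375, 0.400 and 0.400 FPKM at day 3. It was at 2.56, 0.768 and 0.316 FPKM at day 6 and at 3.91, 2.23 and 0.305 FPKM at day 9. The scrambled culture was the highest and hairpin B the lowest at both late days. The log2 difference at day 3 was -0.77 ± 0.40 (limma adjusted p = 0.280), and in the smaller fit Lama4 fell by 0.77 at day 3 (adjusted p = 0.0335) and rose by 0.69 at day 9 (limma adjusted p = 0.0383). Lama3, a chain of epithelial laminin, was at or below 1.41 FPKM in all 12 libraries. Its lowest values were 0.106 FPKM (scrambled) and 0.0805 FPKM (hairpin A), both at day 9. These are under what 3 reads give on 1 kb, but that mark is lower for longer transcripts, and reads per gene are not given for these libraries. In the smaller fit Lama3 was lower by 0.62 at day 6 and 0.86 at day 9. It passed the filter on low values only through the scrambled and hairpin A libraries of day 0, so no p is given. Lama2, the alpha chain of adult muscle, was at or below 0.876 FPKM in every library and was not tested.

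Among the beta and gamma chains, Lamb1 and Lamc1 had most of the transcripts. Lamc1, the common gamma chain, was at 55.9, 64.4 and 66.9 FPKM at day 0, 40.2, 38.5 and 45.6 FPKM at day 3, 37.6, 42.8 and 55.1 FPKM at day 6, and 40.7, 39.3 and 61.7 FPKM at day 9. Scrambled and hairpin A stayed below all day 0 values from day 3 on, whereas hairpin B was back in their range at day 9. The log2 differences were -0.58 ± 0.17, -0.47 ± 0.17 and -0.42 ± 0.17 at days 3, 6 and 9 (limma adjusted p = 0.0740, 0.0993 and 0.0954), and the adjusted p under the culture block was 0.0236, 0.0356 and 0.0335. In the smaller fit Lamc1 fell on all 3 days, by 0.61 at day 9 (limma adjusted p = 0.00149).

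Lamb1, the common beta chain, ranged from 30.0 to 36.8 FPKM at day 0 and from 34.6 to 43.8 FPKM at day 9, and its log2 difference at day 9 was 0.26 ± 0.14 (limma adjusted p = 0.172). It rose by 0.35 in the smaller fit (limma adjusted p = 0.0373), where the median of all genes was 0.13. Lamb2, a beta chain of neuromuscular and kidney basement membranes, was between 6.36 and 14.6 FPKM, highest at day 9 in scrambled and hairpin A, with a rise of 0.66 in the smaller fit (limma adjusted p = 0.00702). Lamc3, a gamma chain of limited tissue range, was at or below 0.105 FPKM in the libraries of days 0, 3 and 6. At day 9 it was at 2.16, 1.34 and 0.175 FPKM, all above the earlier libraries, with hairpin B the lowest. Its log2 difference at day 9 was 0.96 ± 0.29, and 1.35 ± 0.14 in the smaller fit. Lamc3 passed the filter on low values only through the scrambled and hairpin A libraries of day 9. Its tests at that day are therefore no support for a rise, and no p is given. Lamb3, a beta chain of epithelial laminin, ranged from 0.208 to 1.25 FPKM and was higher by 0.66 at day 6 in the smaller fit. In that fit it passed the filter only through the scrambled and hairpin A libraries of day 6, so no p is given.

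**Figure D3:**
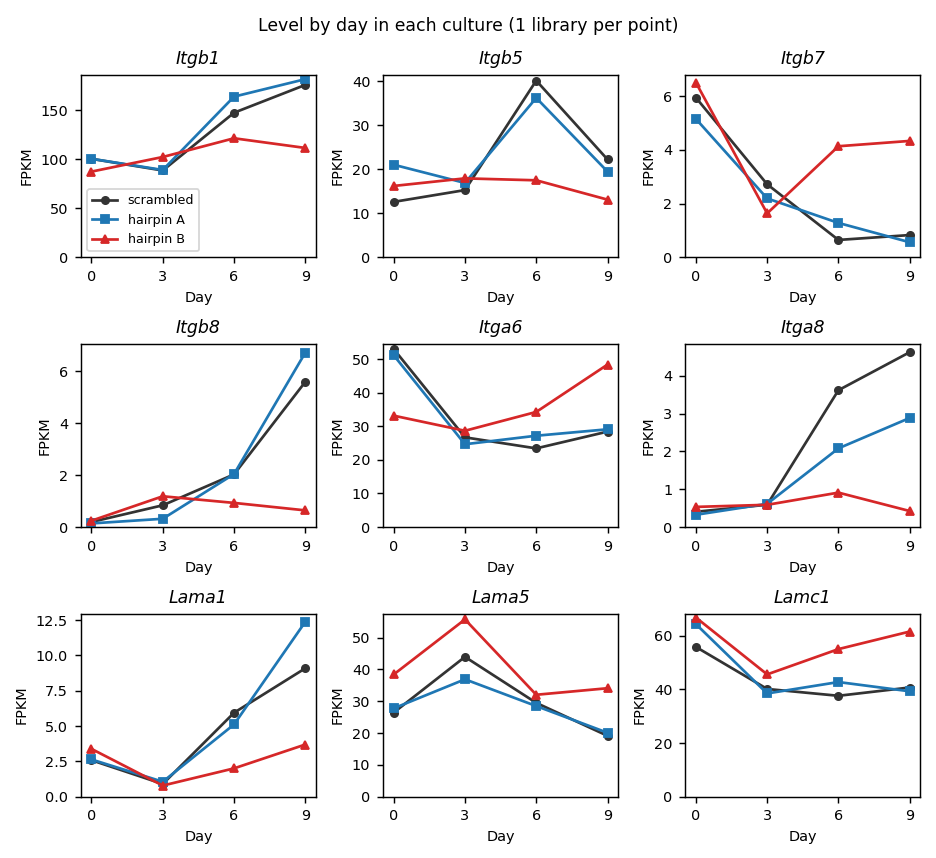
FPKM (linear axis from 0) against day for 9 members in the 3 cultures, with 1 library per point. For Itgb1, Itgb8, Itga8 and Lama1 the scrambled and hairpin A cultures are well above hairpin B at day 9, and for Itgb7 well below it.

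Of the receptors, Itgb1, the beta subunit shared by most laminin, collagen and fibronectin receptors, had 74.4% to 84.9% of the summed beta subunit FPKM in each of the 12 libraries. It was at 101, 101 and 87.5 FPKM at day 0, 88.6, 89.2 and 102 FPKM at day 3, 147, 164 and 121 FPKM at day 6, and 176, 182 and 112 FPKM at day 9. All libraries of days 6 and 9 were above all of day 0, and hairpin B was the lowest at both late days. Itgb1 rose by 0.67 ± 0.19 at day 9 (log2, adjusted p = 0.0437), and its difference at day 6 was 0.57 ± 0.19 (limma adjusted p = 0.0816, and 0.0457 under the culture block). In the smaller fit it rose by 0.70 at day 6 and 0.90 at day 9 (limma adjusted p = 0.00123 and 0.000212). With each library scaled to a common median, which moved the median of all genes at day 9 from 0.10 to -0.02, the Itgb1 difference was 0.52 and its adjusted p 0.0598. The call was also lost without the scrambled culture (adjusted p = 0.434), without hairpin A (adjusted p = 0.326) and with no filter on low values (limma adjusted p = 0.0592).

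Itgb8, a partner of Itgav that binds latent TGF-beta, had the largest rise of the members. It was at 0.194, 0.139 and 0.243 FPKM at day 0, 0.838, 0.317 and 1.19 FPKM at day 3, 2.03, 2.04 and 0.930 FPKM at day 6, and 5.60, 6.73 and 0.642 FPKM at day 9. Every later library was above every day 0 library, and hairpin B ended near a level that the other cultures had passed by day 6. Itgb8 rose by 1.88 ± 0.50 at day 9 (log2, limma adjusted p = 0.0385) and by 2.59 ± 0.21 in the smaller fit (adjusted p = 3.75e-05). The first call was lost without the scrambled culture (adjusted p = 0.431), without hairpin A (adjusted p = 0.331) and with no filter on low values (limma adjusted p = 0.0547).

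Itgb7, a beta subunit best known from lymphocytes, went the other way. It was at 5.95, 5.15 and 6.51 FPKM at day 0, 2.72, 2.20 and 1.64 FPKM at day 3, 0.652, 1.28 and 4.14 FPKM at day 6, and 0.833, 0.566 and 4.33 FPKM at day 9. All later libraries were below all of day 0, and hairpin B returned towards that level after day 3. The log2 difference at day 9 was -1.46 ± 0.48 (adjusted p = 0.0613, and 0.0341 under the culture block), and in the smaller fit it fell by 2.02 ± 0.20 (limma adjusted p = 0.000106). The summed level of the 7 measured leukocyte markers was also lower later, at 25.3 to 31.5 FPKM at day 0 and at 11.9, 10.2 and 22.0 FPKM at day 9, most of it from Cd68, Coro1a and, at day 0, Lyz2. Its genes differed among themselves: Cd68 in hairpin B was at 12.0 FPKM at day 0 and 18.1 FPKM at day 9, and Csf1r was higher at day 9 than at day 0 in all 3 cultures. Ptprc, the defining marker, was at or below 0.0446 FPKM in every library. Their part in the Itgb7 values was not tested.

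Itgb3, the partner of Itgav in the vitronectin receptor, was low for 1 time point. It was at 2.19, 2.34 and 1.89 FPKM at day 0, 0.379, 0.225 and 0.433 FPKM at day 3, 2.17, 1.295 and 3.60 FPKM at day 6, and 2.46, 1.67 and 3.89 FPKM at day 9. It fell by 1.22 ± 0.28 at day 3 (log2, limma adjusted p = 0.0381), and at day 9 scrambled and hairpin B were above their day 0 levels and hairpin A below its own. In the smaller fit the adjusted p was 0.00101, and the call was lost without the scrambled culture (adjusted p = 0.474) or hairpin A (limma adjusted p = 0.267). The 8 fibroblast markers summed to 55.4, 62.6 and 62.6 FPKM at day 0 and to 18.8, 16.9 and 11.4 FPKM at day 3, with 8 of 8 differences below 0. At day 9 they summed to 135, 73.2 and 34.9 FPKM. The part of fibroblasts in the Itgb3 and Lama4 values of these days was not tested.

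Itgb5, another partner of Itgav for vitronectin, peaked at day 6 in 2 cultures. Its levels were 12.6, 21.0 and 16.2 FPKM at day 0, 15.3, 16.9 and 17.9 FPKM at day 3, 40.1, 36.2 and 17.5 FPKM at day 6, and 22.2, 19.5 and 13.1 FPKM at day 9. The hairpin B library of day 6 was within the day 0 range. The log2 difference at day 6 was 0.82 ± 0.31 (limma adjusted p = 0.115), and Itgb5 rose by 1.20 in the smaller fit (adjusted p = 0.00128). Itgb4, the partner of Itga6 at hemidesmosomes, was the 1 member called at day 6 with all libraries, with a fall of 0.92 ± 0.23 (limma adjusted p = 0.0418). Its levels were 3.65, 4.90 and 4.79 FPKM at day 0 and 0.913, 3.09 and 1.98 FPKM at day 6. Per the authors' status column, however, the Itgb4 estimate had failed in the scrambled and hairpin B libraries of day 6, so this call rests on estimates marked as failed. In the smaller fit the difference was -0.85 ± 0.26 (limma adjusted p = 0.0301). The call was lost with no filter on low values (adjusted p = 0.0603) and when any 1 culture was left out whole (limma adjusted p from 0.0517 to 0.461).

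Among the alpha subunits, Itga6, the laminin receptor subunit that marks stem cells, was the most abundant at day 0. It was at 53.1, 51.2 and 33.2 FPKM at day 0, 26.7, 24.7 and 28.7 FPKM at day 3, 23.4, 27.2 and 34.3 FPKM at day 6, and 28.4, 29.1 and 48.4 FPKM at day 9. Scrambled and hairpin A dropped to about the same level by day 3 and stayed there, while the hairpin B culture, the lowest at day 0, was the highest at day 9. The log2 difference at day 3 was -0.73 ± 0.24 (limma adjusted p = 0.109), and in the smaller fit Itga6 fell on all 3 days, by 0.73, 0.81 and 0.63 (adjusted p = 0.0189, 0.0105 and 0.0228). Itga3, another laminin receptor subunit, was higher at day 3: 8.67, 10.8 and 15.5 FPKM at day 0 against 22.4, 17.2 and 29.5 FPKM at day 3. These groups did not overlap, and the difference was 0.93 ± 0.42 (limma adjusted p = 0.214, 0.0494 under the culture block and 0.0223 in the smaller fit).

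Itga8, the receptor subunit for nephronectin, was at or below 0.613 FPKM in all libraries of days 0 and 3. It was at 3.62, 2.08 and 0.909 FPKM at day 6 and at 4.62, 2.88 and 0.422 FPKM at day 9. Hairpin B at day 9 was thus within the day 0 range of 0.324 to 0.532 FPKM. The log2 difference at day 9 was 1.15 ± 0.41, and in the smaller fit Itga8 was higher by 1.37 at day 6 and 1.68 at day 9. It passed the filter on low values only through the scrambled and hairpin A libraries of those days, so no p is given. Itga5, the fibronectin receptor subunit, was at 18.2, 21.4 and 25.5 FPKM at day 0 and 11.8, 11.3 and 25.3 FPKM at day 9, with a fall of 0.83 in the smaller fit (limma adjusted p = 0.00144). In that fit Itga1, a collagen receptor subunit, and Itga4, a receptor subunit for Vcam1 and fibronectin, were higher by 0.68 and 0.51 at day 9. Among its libraries Itga1 reached 1 FPKM only at day 9, and Itga4 only in scrambled at days 6 and 9, so no p is given. Neither exceeded 1.54 FPKM in any library.

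Itgav, Itga9, Itga7 and Itga2b passed at day 9 in none of these fits, and Itga7 was not tested in the smaller one. Itgav, the vitronectin receptor subunit, stayed between 9.85 and 19.3 FPKM, and Itga9, a tenascin receptor subunit, between 1.75 and 6.92 FPKM. Both fell at day 3 in the smaller fit, by 0.46 and 0.86 (limma adjusted p = 0.00714 and 0.0252). Itga7, a muscle laminin receptor subunit, was at or below 1.35 FPKM. The untested alpha subunits Itga2, Itga10, Itga11, Itgae, Itgal, Itgam and Itgax and the beta subunits Itgb2 and Itgb6 were at or below 1.04 FPKM in all 12 libraries.

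Genes known to act with these proteins were taken from lists of basement membrane partners, other integrin ligands, and integrin adaptors and kinases. At day 9, with all libraries, 3 of 12 basement membrane partners rose and 0 fell, 2 of 11 ligands rose and 3 fell, and 2 of 17 adaptors rose and 1 fell. Of all genes tested, 10.3% rose and 6.22% fell. Col4a1 and Col4a2, the chains of the main basement membrane collagen, rose by 2.25 and 2.35, and Sparc, a collagen-binding protein, by 1.15. Vtn, which encodes vitronectin, rose by 3.75, and Npnt, which encodes nephronectin, the ligand of the Itga8 receptor, by 1.78, whereas Spp1, which encodes osteopontin, fell by 2.40. The smaller fit called 4 higher and 4 lower of the 12 partners, with Nid2 (nidogen) falling by 2.17, 2 higher and 7 lower of the 11 ligands, and 6 and 6 of the 17 adaptors (limma). That fit called 35.6% of all genes higher and 24.5% lower.

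Depletion of Braveheart was compared with the scrambled culture on each day, with hairpins A and B as the 2 replicates and the single scrambled library taken to vary as they do (limma, 4 residual degrees of freedom). No member passed at day 6, at day 9 or in the mean over the days, where 0.0425%, 0.0354% and 0.0638% of all genes were called in either direction. At an unadjusted p under 0.05 there were 2, 1 and 2 members of 26, and 148, 199 and 172 of all 14108 genes tested. The median log2 difference of the members was 0.01 at day 6 and -0.17 at day 9, against -0.02 and -0.07 over all genes tested. In the mean over days these 2 were Itgb4, at 0.60 ± 0.17, and Itga2b, at -0.47 ± 0.13 (limma adjusted p = 0.931 for each). Lama4 was at -0.60 ± 0.27 and Itga3 at 0.55 ± 0.34. The scrambled Itgb4 values behind this mean were marked as low data at day 3 and as failed at day 6, and the hairpin B value of day 6 as failed. Without hairpin B at day 6, or at day 9, 0 members passed as well.

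By size alone, both hairpins were at least 2-fold below scrambled in 1 member at day 6 and in 1 at day 9, on the log2(FPKM + 1) scale, and 0 were higher. Over all genes tested, 0.354% were higher and 0.68% lower at day 6, and 0.191% and 0.659% at day 9. The member at day 6 was Lama4, at 2.56 FPKM in scrambled against 0.768 and 0.316 FPKM. At day 9 it was Itga2b, the platelet integrin subunit that also marks early blood progenitors, at 3.27 FPKM in scrambled against 1.08 and 1.06 FPKM. At day 6 Itga2b was at 2.55 FPKM against 0.846 and 0.689 FPKM, a difference of -0.94 in hairpin A, just short of 2-fold on this scale. At days 0 and 3 it was between 0.410 and 0.961 FPKM in all cultures. With a pseudocount of 0.1 FPKM, 5 cases at these days met the rule (Itgb4 higher, and Itga2b, Itga4 and Lama4 lower, at day 6, and Itga2b lower at day 9), and with median scaling 0 did. That pseudocount also put Itgb4 higher at day 3, and its counts over all genes were 172 higher and 218 lower at day 6 and 85 and 175 at day 9, where a pseudocount of 1 FPKM gave 50 and 96, and 27 and 93.

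Summed levels of marker lists also differed between the cultures. The 6 markers of megakaryocytes and platelets summed to 3.89, 1.88 and 0.498 FPKM at day 6 and 9.06, 3.29 and 1.90 FPKM at day 9, with Gp6 listed at 0 in all libraries of these days and Pf4, most of the sum in scrambled and hairpin A, at 7.21, 2.42 and 0.185 FPKM at day 9. Others of the list went the other way at day 9, with Ppbp at 0.204, 0.266 and 1.303 FPKM and Gp1bb at 0.0688, 0.173 and 0.411 FPKM. The 6 endothelial markers summed to 31.8, 12.8 and 28.9 FPKM at day 6. At day 9 Cdh5 was at 8.52, 5.15 and 0.189 FPKM and Kdr at 12.6, 5.33 and 0.354 FPKM. Emcn and Tie1 were also highest in scrambled. Tek, at 4.24, 2.83 and 4.28 FPKM, and Pecam1, at 11.2, 9.06 and 38.5 FPKM, were instead highest in hairpin B. The 8 striated muscle markers summed to 432, 78.0 and 25.6 FPKM at day 9. Of these, Des and Myog were highest in hairpin B and the others in scrambled. Scrambled thus had the highest sum in each of the 3 lists at day 9. Pecam1, which stem cells express too, put the endothelial sum of hairpin B (43.5 FPKM) near that of scrambled (46.6 FPKM). The part of these cell types in the Lama4 and Itga2b values was not tested.

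**Figure D4:**
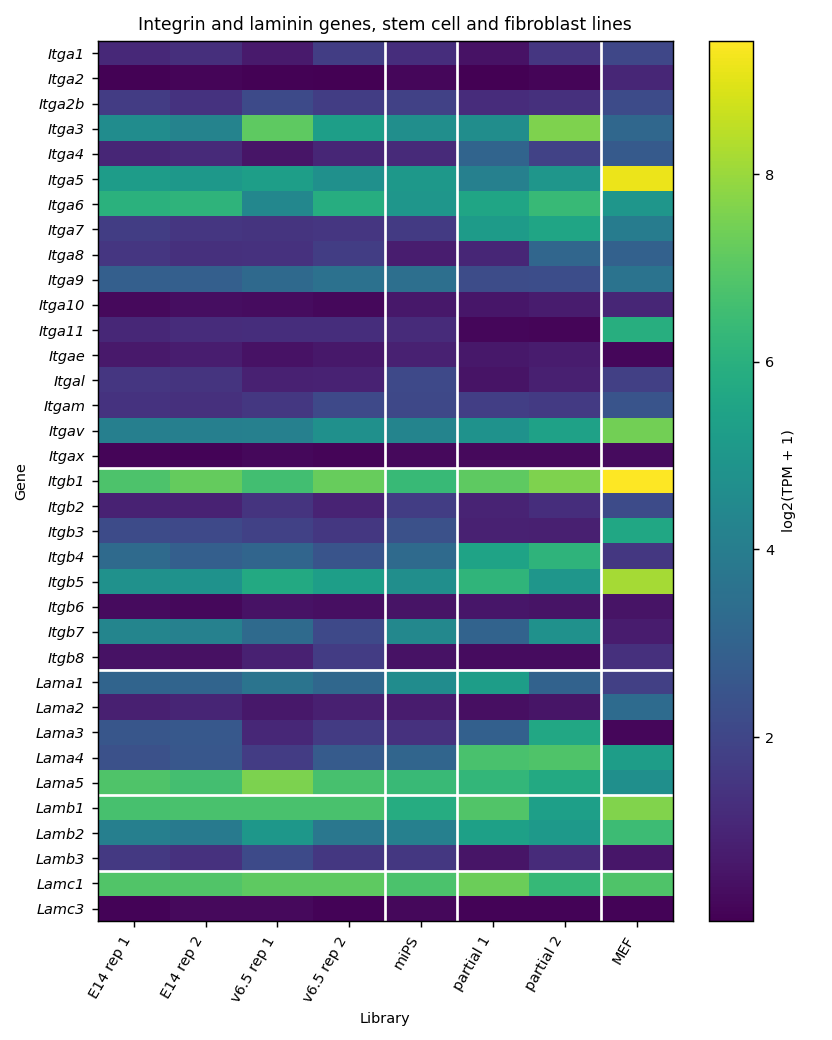
Level of the integrin and laminin genes in the 8 survey libraries, as log2(TPM + 1), with genes in rows by class and libraries in columns by line. The MEF column is the brightest for Itga5, Itgav, Itgb1 and Itgb5, and Itga7, Itgb4 and Lama4 are bright in the partially reprogrammed columns.

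In the survey of lines, the fibroblasts had the most integrin transcripts per length. The alpha subunits summed to 892 TPM (a length-scaled share of the transcripts of a library) in MEF, against 155 to 232 TPM in the 4 mESC libraries, and the beta subunits to 1026 TPM against 169 to 204 TPM. Laminin alpha chains were instead lowest in MEF, at 74.4 TPM against 115 to 206 TPM. Laminin beta chains were highest in MEF, at 289 TPM against 119 to 140 TPM. Itgb1, Itga5, Itgb5, Lamb1, Itgav and Lama5 had the highest levels of a group. Differences were tested with edgeR's quasi-likelihood test on the expected counts, over all 8 libraries in 5 groups with 3 residual degrees of freedom, with Benjamini-Hochberg adjustment over 16773 genes. The groups with 1 library, MEF and miPS, were taken to vary like the others. Of the 36 members, 32 were tested, and Itga2, Itgax, Itgb6 and Lamc3 were too low, at or below 1.05 TPM.

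Against MEF, 4 members were higher and 12 lower in mESC, where 13.2% and 15.4% of all genes tested were higher and lower. The lower ones were Itga4, Itga5, Itga7, Itga10, Itga11, Itgav, Itgb1, Itgb3, Itgb5, Lama2, Lama4 and Lamb2, and the higher ones Itgae, Itgb7, Lama3 and Lama5. The median log2 difference was -1.41 over the members tested and 0.19 over all genes. In the partially reprogrammed lines against MEF, 3 members were higher (Itgb4, Itgb7 and Lama3) and 9 lower (Itga5, Itga9, Itga11, Itgav, Itgb1, Itgb3, Itgb5, Itgb8 and Lama2), against 4.95% and 8.87% of all genes. The medians were -1.25 and 0.15, and the latter was 0.04 with DESeq2's size factors, under which the 12 members called stayed called. Both comparisons share the single MEF library, so their values are set side by side only.

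Itgb1 was the most abundant member in MEF, at 687 TPM, against 110 and 149 TPM in E14, 96.0 and 150 TPM in v6.5, 137 and 194 TPM in the partially reprogrammed lines (MCV6, then MCV8) and 81.2 TPM in miPS. The difference from MEF was -2.74 ± 0.30 in mESC and -2.29 ± 0.36 in the partial lines (log2 ± SE, edgeR adjusted p = 0.00294 and 0.0121). Itga5, its partner in the fibronectin receptor, was at 568 TPM in MEF and at 16.6 to 38.8 TPM in all 7 other libraries. The difference was -4.41 ± 0.39 in mESC and -4.79 ± 0.50 in the partial lines (edgeR adjusted p = 0.00182 and 0.00367). As a share of the alpha subunits, Itga5 was 63.7% in MEF and between 7.34% and 24.0% elsewhere.

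The vitronectin receptor subunits were also highest in MEF. Itgav was at 172 TPM in MEF, 15.8 to 25.6 TPM in mESC, and 27.6 and 41.9 TPM in the partial lines. Itgb5, whose promoter is shown above with that of Itgb1, was at 282 TPM in MEF against 26.3, 27.1, 52.5 and 38.7 TPM in the mESC libraries (E14, then v6.5) and 70.9 and 30.0 TPM in the partial lines. Itgb3 was at 48.8 TPM in MEF, at 1.95 to 3.52 TPM in mESC and at 0.886 and 0.806 TPM in the partial lines. Each of these genes was thus several times higher in the 1 MEF library than in any other, and Itgb3 had the largest difference, -4.58 ± 0.33 in mESC and -6.48 ± 0.47 in the partial lines (edgeR adjusted p = 0.00134 and 0.00162).

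Itga11, a collagen receptor subunit of fibroblasts, was at 59.6 TPM in MEF, 1.13 to 1.40 TPM in mESC, 1.28 TPM in miPS, and 0.161 and 0.122 TPM in the partial lines. The partial lines had 3 reads together, against 1535 in MEF, a ratio of 881 (95% counting interval 301 to 4277), and the difference of mESC from MEF was -5.90 ± 0.30 (log2, edgeR adjusted p = 0.00100). Lama2 was at 9.04 TPM in MEF, 0.555 to 0.993 TPM in mESC, and 0.338 and 0.477 TPM in the partial lines. Itgb8 was at 1.55 TPM in MEF with 22 reads and had 0 reads in both partial lines, which makes MEF at least 6.31-fold higher against a floor of 3 reads per library (the deposited TPM are above 0 even where a count is 0). Itga11 and Lama2 were thus low in both mESC and the partial lines, whereas Itgb8 was at 0.406, 0.367, 0.877 and 2.24 TPM in mESC, above MEF in the second v6.5 library.

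The laminin chains were split: in mESC Lama2, Lama4 and Lamb2 were lower than in MEF, as most integrins called were, and Lama3 and Lama5 higher. Lama5, at 25.5 TPM in MEF, was at 112, 96.7, 191 and 103 TPM in the mESC libraries, 83.7 TPM in miPS, and 74.8 and 52.1 TPM in the partial lines. All 7 were above MEF, and mESC were higher by 2.12 ± 0.58 (log2, edgeR adjusted p = 0.0405). This call was near the threshold: with DESeq2's size factors the adjusted p was 0.0508, without either E14 library it was 0.0979 and 0.0974, and without either partial line 0.0581 and 0.0532. Lama3 had 1 read in MEF. It was at 4.79, 5.20, 1.13 and 2.19 TPM in mESC and at 6.599 and 49.3 TPM in the partial lines, so the lines differed from each other by more than the mESC libraries did. Its read ratio to MEF was 124 in mESC (95% counting interval 22.2 to 4906) and 1126 in the partial lines (202 to 44495).

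Lama4 was at 37.3 TPM in MEF, 2.25 to 5.63 TPM in mESC, 7.56 TPM in miPS, and 104 and 112 TPM in the partial lines. The partial lines thus had the most and mESC the least, and the difference of mESC from MEF was -3.62 ± 0.46 (log2, edgeR adjusted p = 0.00425). Of the alpha chain transcripts, Lama4 was 46.5% and 50.8% in the partial lines and 50.1% in MEF but 1.09% to 4.72% in mESC, where Lama5 was 83.8% to 92.5%. Lamb2 was at 88.6 TPM in MEF, 12.6 to 30.9 TPM in mESC, and 40.9 and 33.0 TPM in the partial lines. Lamb1 and Lamc1 passed in neither comparison with MEF: Lamb1 was at 200 TPM in MEF, 103 to 106 TPM in mESC, and 116 and 39.6 TPM in the partial lines, and Lamc1 at 114 TPM in MEF, 115 to 137 TPM in mESC, and 159 and 79.0 TPM in the partial lines. The difference of Lamc1 was -0.25 ± 0.45 in mESC and -0.04 ± 0.50 in the partial lines (log2, edgeR).

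Itgb7 had 4 reads in MEF (0.670 TPM) and was at 18.8, 17.1, 8.83 and 3.35 TPM in mESC, 20.5 TPM in miPS, and 7.21 and 26.9 TPM in the partial lines. Its read ratio to MEF was 56.7 in mESC (95% counting interval 22.1 to 208) and 83.5 in the partial lines (32.4 to 307). Itgae, an alpha subunit that pairs with it, had 1 read in MEF and was at or below 0.870 TPM in all libraries, with a ratio of 13.5 in mESC (2.37 to 540). The Itgae call was lost with DESeq2 (adjusted p = 0.141), so its level is near the limit of these libraries. Itgb4 was at 1.97 TPM in MEF, 4.52 to 8.76 TPM in mESC, and 43.4 and 70.3 TPM in the partial lines, which were higher than MEF by 5.23 ± 0.71 (log2, edgeR adjusted p = 0.00758).

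**Figure D5:**
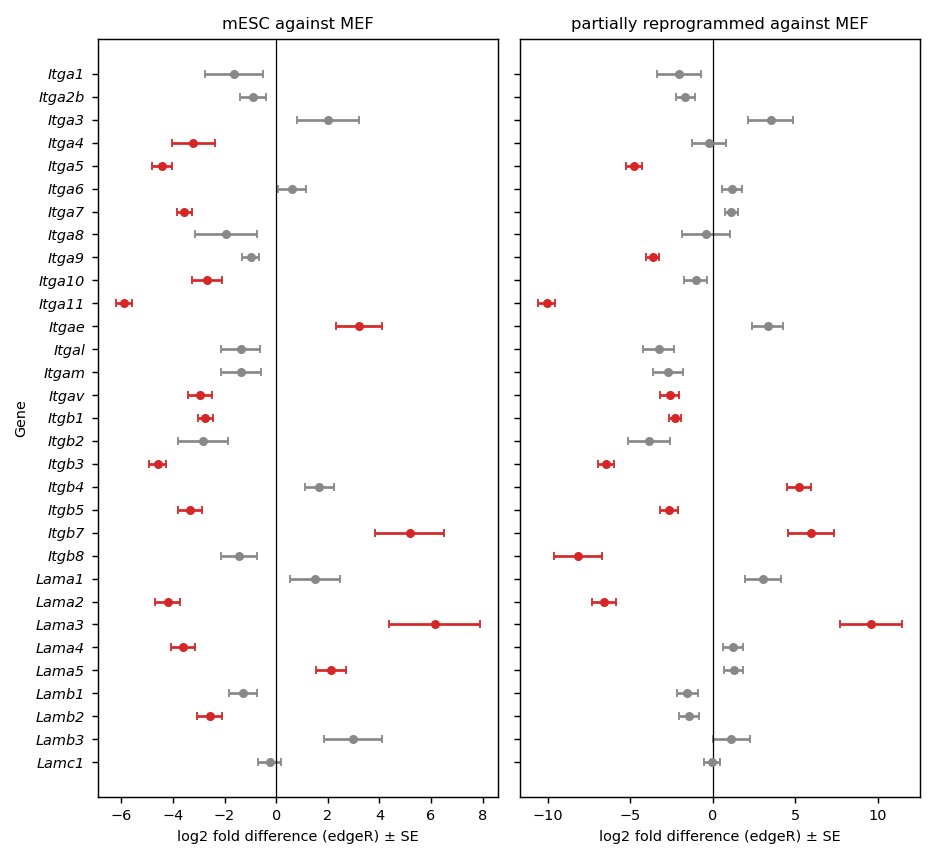
Log2 fold difference ± SE (edgeR) of members tested, for mESC against MEF (left) and the partially reprogrammed lines against MEF (right), with members past an adjusted p of 0.05 in red and the others in grey. Most integrin subunits lie left of 0 on both sides, and Lama4 lies left of 0 for mESC only. For genes with under 5 reads in a group (Itga11, Itgae, Itgb7, Itgb8 and Lama3) the plotted fold depends on the fit's prior count.

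Between the pluripotent and the partially reprogrammed lines, 5 members were higher in mESC (Itga9, Itga11, Itgb3, Itgb8 and Lama2) and 5 lower (Itga4, Itga7, Itgb4, Lama3 and Lama4), against 16.1% and 13.6% of all genes tested. Itga7 was at 1.75 to 2.34 TPM in mESC, 35.7 and 46.4 TPM in the partial lines, 2.13 TPM in miPS and 14.8 TPM in MEF. The partial lines were above all other libraries, and the difference of mESC from them was -4.67 ± 0.27 (log2, edgeR adjusted p = 0.000851). The differences of Lama4 and Itgb4 were -4.84 ± 0.42 and -3.55 ± 0.36 (edgeR adjusted p = 0.00172 and 0.00234). Itga4 was at 0.466 to 1.21 TPM in mESC and at 7.37 and 2.74 TPM in the partial lines, a difference of -2.97 ± 0.73 (edgeR adjusted p = 0.0278). The miPS library was below both partial lines in all 4 genes, at 8.63 TPM for Itgb4 and 1.25 TPM for Itga4.

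Of the genes higher in mESC, Itga9 was at 6.33, 6.34, 8.60 and 10.6 TPM against 3.62 and 3.84 TPM. Its counts differed more than its TPM, at 12.1 to 14.4 CPM (counts scaled by depth) against 2.01 and 2.29 CPM. The difference was 2.67 ± 0.33 on counts (log2, edgeR adjusted p = 0.00374) and 0.90 on log2(TPM + 1) (limma adjusted p = 0.0448). On log2(TPM + 1) the calls of Itgb8, Lama2 and Lama3 in this comparison were lost (limma adjusted p = 0.144, 0.164 and 0.0693). So were 4 calls between the partial lines and MEF, those of Itga9, Itgb8 and Lama3 among them (limma adjusted p = 0.0551, 0.110 and 0.0561). Between mESC and MEF 2 calls were lost, that of Lama3 among them (limma adjusted p = 0.204). Itga11, Itgb3 and Lama2 are genes that the fibroblasts had at high levels. In Itga11, 219 mESC reads stood against 3 in the partial lines, a ratio of 18.1 (95% counting interval 6.11 to 88.4), and Itgb3 and Lama2 were higher by 1.90 ± 0.36 and 2.40 ± 0.57 (edgeR adjusted p = 0.0133 and 0.0254). Most fibroblast markers moved in the same direction: 5 of 8 were higher in mESC than in the partial lines (all genes, 16.1%), and 1 had a difference below 0. The 8 summed to 150 to 264 TPM in mESC, 225 TPM in miPS, 21.9 and 59.4 TPM in the partial lines and 15827 TPM in MEF. Col1a1 was at 56.7 to 87.2 TPM in mESC and at 8.33 and 0.0711 TPM in the partial lines. Prrx1 went the other way in MCV8, where it was most of the sum, at 56.1 TPM against 7.71 to 19.0 TPM in mESC and 3.30 TPM in MCV6. The part of feeder fibroblasts in these 3 genes was not tested. Itgb8 had 85 reads in mESC and 0 in the partial lines, at least 3.51-fold higher against the floor of 3 reads per library. Without the second v6.5 library, which held 54 of the 85 reads, the bound was 1.61-fold, an alternative added after the data were seen.

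Epithelial markers also differed: 6 of 6 were higher in mESC than in the partial lines (all genes, 16.1%), with sums of 526 to 1541 TPM against 12.7 and 13.4 TPM, and 8.0 TPM in MEF. Cdh1 was at 183 to 274 TPM in mESC and at 1.25 and 2.92 TPM in the partial lines. Itgb4 and Lama3 were higher in the partial lines, as given above, whereas Lamb3, another epithelial laminin chain, was at 1.58 to 3.47 TPM in mESC against 0.470 and 1.27 TPM (edgeR adjusted p = 0.105).

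The miPS library did not differ from mESC in any member (0 of 32 in edgeR's quasi-likelihood test, 0 at an unadjusted p under 0.05, and 0 with DESeq2 or limma), where 0.0298% of all genes were higher and 0% lower. Of all 16773 genes tested, 1334 had an unadjusted p under 0.05 in the edgeR test. With 1 miPS library the standard errors were wide, and the largest difference of a member was -2.42 ± 1.78 for Itga8, followed by -2.20 ± 1.06 for Itgb8. Lama1 was at 23.2 TPM in miPS against 7.36 to 11.6 TPM in mESC, 1.56 ± 0.78 (log2, edgeR adjusted p = 0.686). Between E14 and v6.5 0 of 32 members passed, where 0.149% and 0.34% of all genes were higher and lower in E14. At an unadjusted p under 0.05 there were 2 members, Itgb8 among them, and 3140 of all 16773 genes tested. DESeq2 called 1 member, and over all genes 350 higher and 788 lower. Without the second v6.5 library 6 members passed, and over all genes 2290 were higher and 2027 lower, in place of 25 and 57.

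Most of the other genes of the pathway that differed from MEF were lower than in MEF. Of 12 basement membrane partners, 2 were higher and 6 lower in mESC than in MEF, and 0 and 7 in the partial lines. The ligands were 1 higher and 8 lower of 11 in mESC and 0 and 8 in the partial lines, and the adaptors and kinases 1 and 11 of 17, and 0 and 11. Of all genes tested, 13.2% were higher and 15.4% lower in mESC, and 4.95% and 8.87% in the partial lines. The difference of Col4a1 from MEF was -5.26 in mESC and -7.01 in the partial lines, and that of Fn1, which encodes the fibronectin bound by the Itga5 receptor, -3.82 and -4.33 (log2, edgeR). Fermt1, a kindlin that binds beta subunit tails, was the 1 adaptor higher in mESC, at 1.81 to 6.06 TPM against 0.895 TPM in MEF. In mESC against the partial lines, 8 of 12 partners and 7 of 11 ligands were higher and 0 lower, Nid2 among them at 120 to 271 TPM against 3.36 and 3.90 TPM, whereas the adaptors were split, with 4 higher and 4 lower of 17. Over all genes, 16.1% were higher and 13.6% lower in that comparison.

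The number of calls in the survey moved with single libraries. Without either E14 library, 9 members differed between mESC and MEF in place of 16, and 5 between mESC and the partial lines in place of 10. Between the partial lines and MEF, 7 passed in place of 12 without the first E14 library, and 22 without either v6.5 library, which had no part in the comparison but in the estimate of the spread. The counts over all genes moved too: without the first E14 library, from 2221 higher and 2582 lower to 625 and 1014 for mESC against MEF, from 2702 and 2276 to 1224 and 823 for mESC against the partial lines, and from 830 and 1488 to 216 and 728 for the partial lines against MEF. Without the first v6.5 library the last became 2357 and 2453.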

How the data were processed

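The members and lists were chosen with earlier results of these data known. Time course: the authors deposited 1 FPKM value per gene and library (mm9; Cufflinks 1.3.0 after TopHat 1.14 with Bowtie 0.12.7), as the submitters' processing notes say. The deposited fold ratios of hairpin to scrambled were not used. Survey: the authors deposited RSEM expected counts and TPM, made after TopHat 1.3, per the same notes. Annotation and strand use are not given in the sources used here. FPKM were tested as log2(FPKM + 1) with limma 3.58.1 (R 4.3.3), for 14108 genes at 1 FPKM or more in at least 2 libraries. Expected counts were rounded and tested with edgeR 4.0.16 (quasi-likelihood, TMM), for 16773 genes at 1 CPM or more in at least 2 libraries. The threshold was a Benjamini-Hochberg adjusted p of 0.05. Scripts were tested on simulated data. Alternatives were another pseudocount, no filter, median scaling, DESeq2 1.42.0, replicate blocks and left-out libraries. Pairing of the time course by culture comes from the labels; within-culture correlations of deviations from the day means ran from -0.0910 to 0.642. 1 member is counted but not reported here by name or value, and is left out of the figures. The other members were to be named, with values per library for the largest calls and the highest levels. In the tables, 16 confidence-bound columns and 343 entries without values were not used. Counting intervals cover counting error only.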

Additional observations from a re-analysis of the deposited data

How the results depend on the processing

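No called member changed direction under the alternatives run for it. In brackets below, counts over all genes tested are given as higher and lower. With all 12 libraries 1 (460 and 392), 1 (701 and 523) and 2 (1459 and 878) members passed at days 3, 6 and 9. At day 3 a pseudocount of 0.1 FPKM gave 2 (451 and 422) and median scaling 2 (449 and 418). The culture block gave 5 (750 and 610). At day 6 no filter gave 2 (628 and 546) and the culture block 3 (1350 and 854). At day 9 median scaling gave 1 (983 and 1272) and the culture block 7 (2657 and 1561). A pseudocount of 0.1 FPKM gave 3 (1579 and 896) and no filter 3 (1021 and 688). With no filter, 0 of the members first called at days 6 and 9 were among them. Leaving out 1 culture gave 0 to 10, 0 to 13 and 0 to 16, with 0 without scrambled or hairpin A and the highest count without hairpin B. Leaving out the day 6 and day 9 libraries of hairpin B gave 10 (2035 and 1766), 13 (3837 and 2649) and 16 (4978 and 3426). At days 6 and 9 the rule of 2-fold in both hairpins gave 2 cases, 5 with a pseudocount of 0.1 FPKM and 0 with median scaling. In the survey, leaving out 1 library gave 9 to 21 members between mESC and MEF, 7 to 22 between the partial lines and MEF, 5 to 14 between mESC and the partial lines, and 0 to 6 between E14 and v6.5. Over all genes these counts moved too, as given above. Without a filter 20 members (1409 and 2048) passed between the partial lines and MEF, and 1 (428 and 989) between E14 and v6.5, where DESeq2 also gave 1. For all genes that last comparison went from 25 higher and 57 lower to 350 and 788 with DESeq2. The E14 and v6.5 libraries share only a replicate number (1 pair, correlation 0.396). That replicate block gave 17 (2367 and 2803), 12 (926 and 1552), 11 (2771 and 2518), 0 (29 and 0) and 0 (31 and 83) members in the 5 survey comparisons. The hairpin block gave 0 (0 and 6) for the mean depletion difference. Single libraries for MEF, miPS and each scrambled day limit every comparison with them.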

Other observations

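Libraries of 1 group differed in several members. Between the v6.5 libraries, Itga3 was at 135 and 38.6 TPM, Itga6 at 20.1 and 58.4 TPM, and Lama5 at 191 and 103 TPM, whereas the E14 libraries had 23.1 and 17.98 TPM of Itga3 and 64.4 and 69.7 TPM of Itga6. Between the partially reprogrammed lines MCV6 and MCV8, Itga3 was at 24.0 and 195 TPM, Lama1 at 37.8 and 6.94 TPM, and Lamb1 at 116 and 39.6 TPM. These are single libraries, so no test was made.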
